A study of Mus musculus with 4 samples.

Results

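Genes of the WNT pathway, 10 in all, were followed in mouse embryonic stem cells (mESCs) that lack telomerase, before and after they took up another way of keeping their telomeres: *Wls*, *Fzd5*, *Sfrp1*, *Dkk1*, *Ctnnb1*, *Axin2*, *Nkd1*, *Tcf7*, *Lef1* and *Tcf7l1*. They were found by an exact match of the gene symbol, which gave 10 of the 53379 genes listed for each library, and all 10 had enough reads to be tested. The cells are DKO741, a single line made from E14 mESCs by replacing both alleles of *Terc*, the gene of the telomerase RNA, so that the Terc-/- genotype is shared by both groups. PD100 cells are the pre-ALT state, kept for 100 population doublings, and PD800 cells are post-ALT survivors at 800 population doublings, where ALT stands for alternative lengthening of telomeres. The labels also speak of 100 and 800 passages. RNA of feeder-free cultures was sequenced in 2 libraries per group, which the study describes as biological duplicates. The comparison asks how the transcriptome of the stable ALT cells differs from that of the early cells. As both groups come from 1 line and there is no *Terc* wild-type library among them, time in culture and ALT state cannot be told apart.

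WNT proteins are secreted lipid-modified ligands. They bind Frizzled receptors together with the co-receptors LRP5 and LRP6, which halts the destruction of β-catenin, the protein of *Ctnnb1*. β-catenin then enters the nucleus and joins the TCF/LEF proteins on DNA, where TCF7L1 acts mostly as a repressor in mESCs and TCF7 and LEF1 mostly as activators. Activity of the pathway favours self-renewal of mESCs, and several of its target genes, *Axin2*, *Nkd1* and *Dkk1* among them, encode inhibitors that feed back on it.

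The stretches of DNA that TCF/LEF proteins recognise were sought next to the start of the genes whose RNA is described here. The 250 bases before each RefSeq start (GRCm38.p6) were searched on both strands for 4 heptamers that TCF/LEF proteins bind. The first was CTTTGAA, the second was CTTTGAT, the third was CTTTGTA and the last was CTTTGTT. Of all 32851 windows in the RefSeq table, 14.8% hold at least 1 of them and 1.43% hold 2 or more. Of the members 9 have a window, with 14 windows between them, and *Sfrp1* has no entry. A match is found in 2 of these 14 windows, 1 of *Dkk1* and 1 of *Lef1*, a share close to that of all windows. *Dkk1*, the member with the lowest fold change, has 2 matches, from 117 to 111 and from 98 to 92 bases before its RefSeq start. The stretch between their outer ends is shown (26 bases, chr19:30549588-30549613, minus strand), and in GENCODE, which starts *Dkk1* further upstream, it lies in the 5′ UTR of the first exon. The match of *Lef1* is in the fourth of its 4 windows (chr3:131156044-131156293), from 147 to 141 bases before that RefSeq start. This window lies inside the gene, which begins at 131110471 in GENCODE, and the other windows of *Lef1* hold no match. For comparison the whole windows of *Sp5* (chr2:70474673-70474922, plus strand), a target gene outside the 10 that was picked for its values, and of *Axin2* (chr11:108920099-108920348, plus strand), a widely used reporter of the pathway, are given. Capitals mark the heptamers on either strand.
Dkk1: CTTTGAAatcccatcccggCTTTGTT
Sp5: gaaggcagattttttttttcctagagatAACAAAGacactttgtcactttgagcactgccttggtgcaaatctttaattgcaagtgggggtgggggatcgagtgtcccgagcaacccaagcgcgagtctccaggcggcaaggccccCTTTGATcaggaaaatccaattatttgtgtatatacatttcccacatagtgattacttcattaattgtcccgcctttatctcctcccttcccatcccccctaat
Axin2: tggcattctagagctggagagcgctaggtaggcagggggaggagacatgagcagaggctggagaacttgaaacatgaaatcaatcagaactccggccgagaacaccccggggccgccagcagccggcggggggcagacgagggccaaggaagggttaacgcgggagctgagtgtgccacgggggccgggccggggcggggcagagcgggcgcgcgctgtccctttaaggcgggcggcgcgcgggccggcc
Such a match is a description of the letters, and no match says only that these letters are not in the window. Over the wider pathway described below, 10 of 86 windows (11.6%) hold a match, against the 14.8% of all windows.

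The libraries held between 32454121 and 38492149 expected counts, the read pairs that RSEM assigned to genes. *Terc* (chr3:96414437-96414859) had 1 count in PD100 replicate 1 and 0 in the other 3 libraries. Levels are given as CPM or as TPM. CPM are counts scaled to library size with TMM factors, where 3 counts correspond to 0.0743 to 0.0934 CPM. TPM are RSEM's own values, scaled for transcript length and depth without TMM factors, and so can be compared between genes. The size of a difference between the groups can therefore depend on the unit. The mean of *Ctnnb1*, for example, went from 658.7 to 976.8 CPM but from 220.2 to 277.0 TPM. Differences are log2 fold changes of PD800 over PD100 from edgeR's quasi-likelihood test, with the standard error (SE), and "called" means past both limits, an adjusted p below 0.01 and more than a 2-fold difference. Mitochondrial genes took 11.01% to 15.4% of the counts in PD100 and 16.0% to 17.7% in PD800.

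Markers of mESCs and of other cell types were read in the same libraries, and some of them differed between the groups. Of 10 primitive endoderm markers, genes of the extra-embryonic lineage that mESC cultures can produce, all 10 were called lower in PD800, and their summed level went from 1720–1974 CPM in PD100 to 131.5–139.1 CPM. Among them *Foxa2* was at or under 3 counts in both PD800 libraries. Of 10 mESC markers 3 were called higher (*Nanog*, *Esrrb* and *Fgf4*) and none lower, and the summed level went from 2343–2639 to 4186–4289 CPM. Fibroblast markers, which feeder cells would bring, summed to 400.5–406.5 CPM in PD100 and 242.5–289.6 CPM in PD800, with 4 of 9 tested called lower and *Lum* at or under 3 counts in all libraries. Most of that sum was *Fn1*, which was not called (log2 fold change -0.46), and without it, a choice made after seeing the values, the sums were 51.2–73.2 CPM in PD100 and 16.8–17.7 CPM in PD800. Mesendoderm markers, genes of the primitive streak that WNT can induce, were low throughout, at 7.91–9.91 CPM in PD100 and 9.62–11.3 CPM in PD800, with 5 of 8 tested, *Eomes* and *Gsc* called higher and *Foxa2* called lower. The part of these cell types in the results on WNT genes was not tested, and in bulk RNA fewer cells of a type and less RNA per cell cannot be told apart.

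Among the 10 members, *Sfrp1* and *Fzd5* were called higher in PD800 and *Wls*, *Dkk1* and *Tcf7* were called lower. That is 2 higher against a background of 6.28% of the 19148 genes tested, and 3 lower against a background of 8.81%. With the adjusted p alone, 7 of 10 passed, 3 higher with *Ctnnb1* and 4 lower with *Axin2*, where 13.1% and 15.4% of all genes did. Those of *Ctnnb1* and *Axin2* were lost in some alternatives: without PD800 replicate 1 or 2 in turn the edgeR adjusted p was 0.0474 and 0.0622 for *Ctnnb1* and 0.0302 and 0.0263 for *Axin2*, and under limma it was 0.0514 and 0.0522 for *Ctnnb1* and 0.0227 and 0.0268 for *Axin2*. Without those libraries the log2 fold change itself hardly moved, at 0.60 and 0.56 for *Ctnnb1* and -0.81 and -0.80 for *Axin2*. The remaining members, *Lef1*, *Nkd1* and *Tcf7l1*, did not pass. In CPM the groups did not overlap for any of the 10, with 4 above and 6 below PD100, but of all genes 37.4% were above and 36.3% below in the same way. With 2 libraries per group an exact permutation test of a single gene cannot go below p = 0.333, so that the tests rest on the spread shared across genes.

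**Figure D1:**
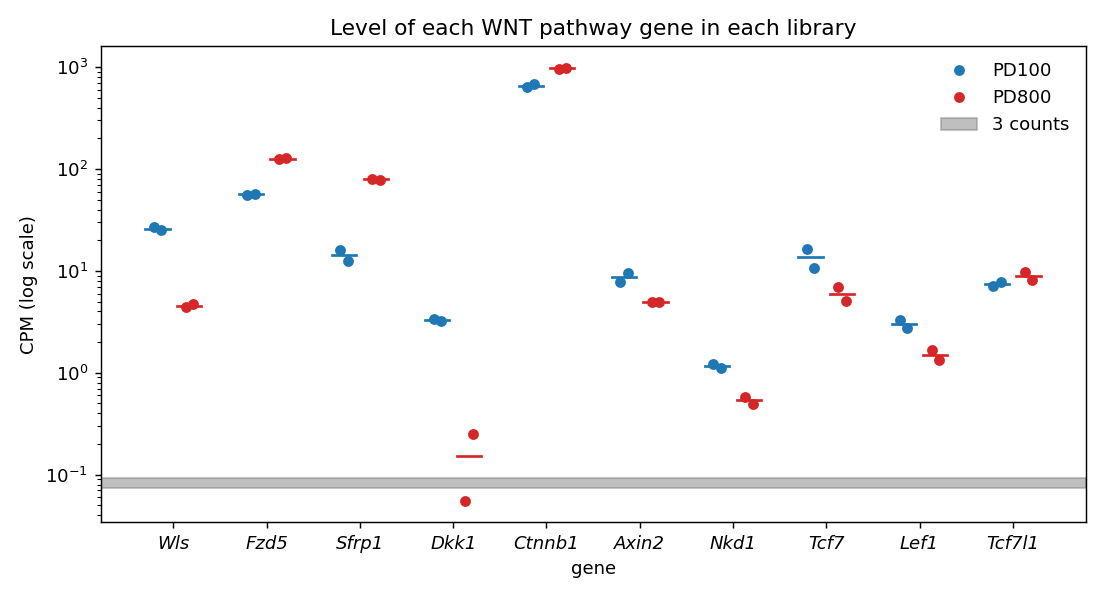
Level of the 10 WNT pathway genes in the 4 libraries, in CPM on a log axis. Points are libraries, horizontal lines are group means (n = 2), and the grey band marks 3 counts. *Ctnnb1* lies at 639 CPM or more in every library, and *Dkk1* in PD800 lies at 2 and 8 counts, around the band. No gene has overlapping groups, where 37.4% of all genes tested were above PD100 and 36.3% below it in the same way.

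The release of WNT ligands was represented by *Wls*, which encodes the carrier that takes lipid-modified WNT proteins to the cell surface. *Wls* (ENSMUSG00000028173.10, chr3:159839672-159938664, plus strand) had levels of 27.1 and 24.9 CPM in PD100 and of 4.42 and 4.70 CPM in PD800. Both PD800 libraries were far below both PD100 libraries. The level was 5.71-fold lower in PD800, a log2 fold change of -2.51 (SE 0.101, 95% interval -2.76 to -2.26, edgeR adjusted p = 4.9e-05). *Wls* is the last gene of chromosome 3 in the files, with 0 genes listed beyond it. A gene of unknown coding status on the same strand, *Gm43307*, overlaps it, with 17 and 13 counts at PD100 against 7 and 5 at PD800.

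Genes close to *Wls* had mostly negative fold changes as well, and genes further in had mostly positive ones. Of the 13 other tested genes within 2.5 Mb of the end of chromosome 3, 11 had a negative log2 fold change, and their median was -1.01. Among them *Lrrc40* was at -1.01, *Srsf11*, a splicing factor gene, at -0.81, and *Cth*, which encodes the cysteine-producing enzyme cystathionine γ-lyase, at -1.06. Between 5 and 10 Mb from the end the median of 28 genes was 1.295, between 10 and 20 Mb that of 49 genes was 0.95, and between 20 and 40 Mb that of 126 genes was 0.56. Over 775 genes further from the end it was 0.26. The fold change of *Wls* thus lay below the median of its 13 neighbours, which ranged from -2.96 to 1.304. Only *Ptger3*, at -2.96, was lower than *Wls*, and the next lowest neighbour was *B230334C09Rik* at -1.41. The overlapping *Gm43307*, at -1.19, is among the 13. Copy number was not analysed here, and the part of the chromosome end in the fall of *Wls* was not tested.

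**Figure D2:**
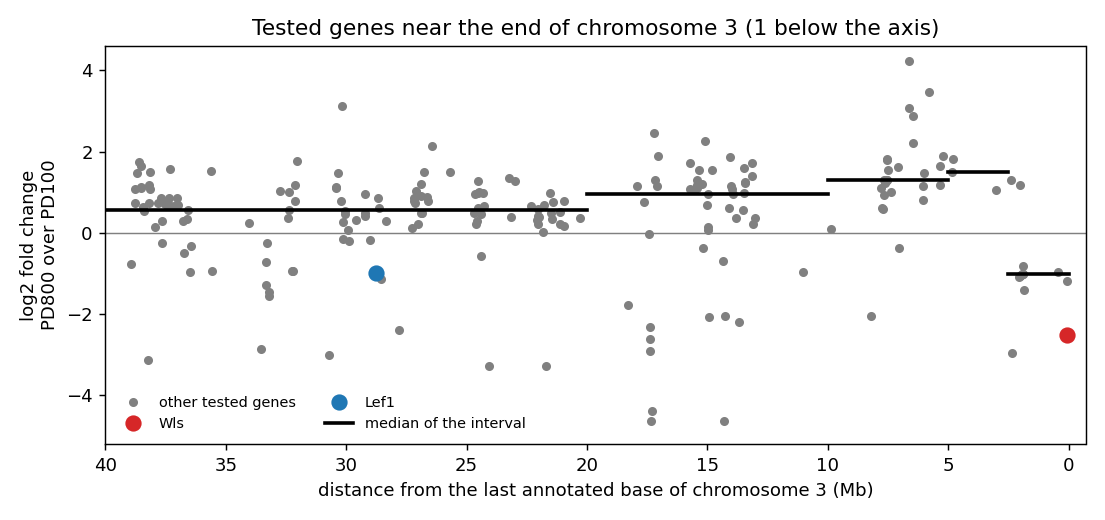
Log2 fold change of PD800 over PD100 (edgeR) for 219 tested genes of the terminal 40 Mb on chromosome 3, against the distance in Mb from its last annotated base; 1 further gene lies below the axis. Black lines are medians of intervals without *Wls*: -1.01 in the last 2.5 Mb, above 0 in the others, with *Wls* (red) at -2.51 and *Lef1* (blue) at -0.99.

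Medians over the nearest genes were set beside each member. For *Wls* the median log2 fold change was 1.21 over the 40 nearest tested genes, -0.89 over the 20 nearest and 1.09 over the 80 nearest, so that this value depends on how far it reaches. The 40 genes nearest to *Lef1*, also on chromosome 3, had a median of 0.67, and those nearest to *Axin2* of 0.33, both opposite in sign to the gene itself. For *Sfrp1* it was -0.52, again opposite in sign. The medians were between -0.37 and 0.11 around *Dkk1*, *Nkd1*, *Tcf7*, *Fzd5*, *Ctnnb1* and *Tcf7l1*. Over 20 and 80 genes in place of 40, the median was 0.57 and 0.27 for *Axin2*, 0.37 and 0.50 for *Lef1*, -0.30 and -0.34 for *Tcf7*, -0.19 and -0.47 for *Nkd1*, 0.11 and 0.17 for *Ctnnb1* and 0.17 and 0.07 for *Tcf7l1*, so that these sizes depend on the reach as well, while their signs did not turn.

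**Figure D3:**
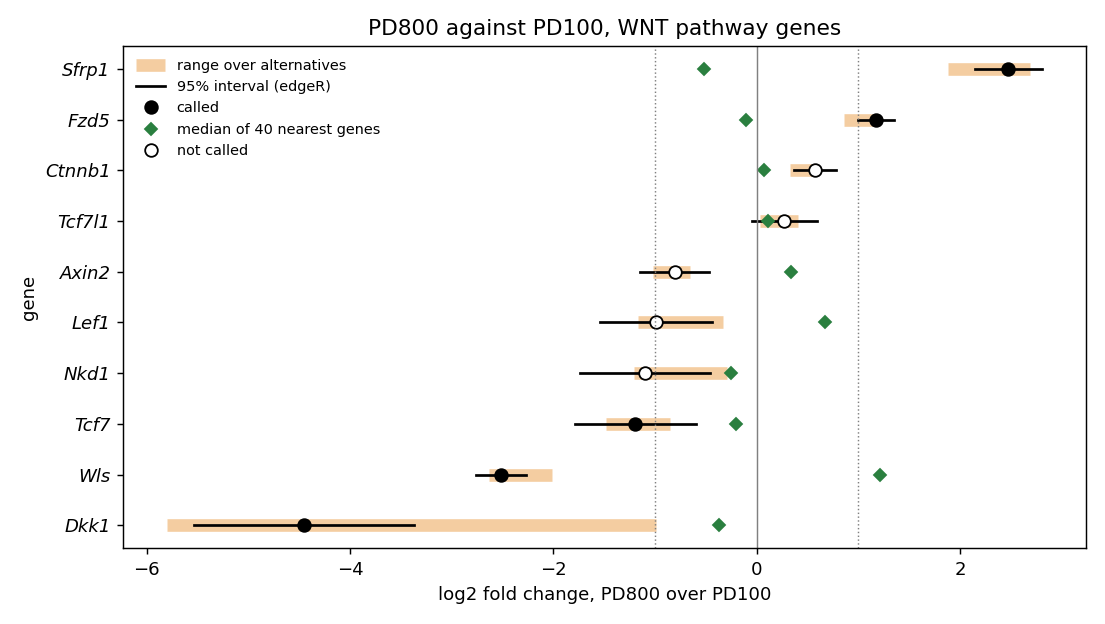
Change of the 10 genes as log2 of PD800 over PD100 (filled circles called, open circles not called), with the 95% interval from edgeR (line), the range over the alternative analyses (band) and the median of the 40 nearest tested genes (green diamonds). Dotted lines mark a 2-fold change; *Sfrp1* at 2.47 and *Dkk1* at -4.45 are the extremes, and the band of *Dkk1* is the widest.

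*Fzd5*, a Frizzled receptor for WNT ligands, rose in PD800. The gene (ENSMUSG00000045005.9, chr1:64730558-64737751, minus strand) had levels of 55.3 and 57.4 CPM in PD100 and of 126.2 and 127.5 CPM in PD800. The libraries of each group were close to each other and the groups far apart. The level was 2.25-fold higher, a log2 fold change of 1.17 (SE 0.0721, 95% interval 0.99 to 1.35, edgeR adjusted p = 0.000136). The interval includes 2-fold, and when a change over 2-fold was itself the hypothesis tested (edgeR's glmTreat) the adjusted p was 0.0685.

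Within the Frizzled family *Fzd5* took a larger share in PD800. Its share of the summed TPM of the 10 *Fzd* genes was 19.9% and 21.4% in PD100 and 47.3% and 49.96% in PD800. *Fzd7*, the Frizzled gene with the highest TPM in PD100, took 42.5% ± 1.45 (SD, n = 2) there and 21.3% ± 1.05 in PD800. The summed TPM of the family was 32.7 ± 2.06 in PD100 and 26.9 ± 0.863 in PD800. Among the 10 Frizzled genes *Fzd7* thus had the highest TPM in PD100 and *Fzd5* in PD800.

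Of the secreted antagonists, which keep WNT from its receptors, the members included *Sfrp1*, which rose, and *Dkk1*, which fell. *Sfrp1* encodes a soluble protein with a Frizzled-like domain that binds WNT ligands (ENSMUSG00000031548.7, chr8:23411502-23449632, plus strand). Its expected counts were 652 and 415 in PD100 and 2889 and 2535 in PD800, and the mean level went from 14.3 ± 2.63 CPM to 79.6 ± 1.05 CPM (SD, n = 2). The lower PD800 library was several times above the higher PD100 library. The fitted level of *Sfrp1* was 5.56-fold higher, a log2 fold change of 2.47 (SE 0.134, 95% interval 2.15 to 2.80, edgeR adjusted p = 9.7e-05). *Wls* and *Sfrp1* were called in each of 14 alternative analyses.

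*Sfrp1* also accounted for most of the RNA of its family in PD800. It took 38.4% and 29.5% of the summed TPM of the 5 *Sfrp* and *Frzb* genes in PD100 and 82.2% and 80.5% in PD800, while the sum went from 7.39 ± 0.537 to 14.6 ± 0.566 TPM. *Sfrp4* had about as large a share as *Sfrp1* in PD100, at 32.6% ± 3.37, and 11.9% ± 0.509 in PD800. *Sfrp2*, another member of the family, fell (log2 fold change -1.25, SE 0.191, edgeR adjusted p = 0.00329).

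*Dkk1* encodes an antagonist that blocks the LRP5 and LRP6 co-receptors and is itself a target of the pathway. The gene (ENSMUSG00000024868.8, chr19:30545863-30549665, minus strand) had expected counts of 137 and 107 in PD100 and of 2 and 8 in PD800. PD800 replicate 1 was under the floor of 3 counts and replicate 2 was above it. In CPM the means were 3.30 ± 0.133 and 0.152 ± 0.137. The fitted level was 21.9-fold lower in PD800, with a log2 fold change of -4.45 (SE 0.443, 95% interval -5.53 to -3.37, edgeR adjusted p = 0.000669). Leaving out 1 library gave values from -5.80 to -3.70. The size of this fold rests on 10 counts in PD800. With limma, on a scale that understates changes of low genes, it was -3.04 for log2(TPM + 0.1) and -0.99 for log2(TPM + 1). Any part of the 2 heptamer matches of *Dkk1*, shown above, in this fall was not tested.

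**Figure D4:**
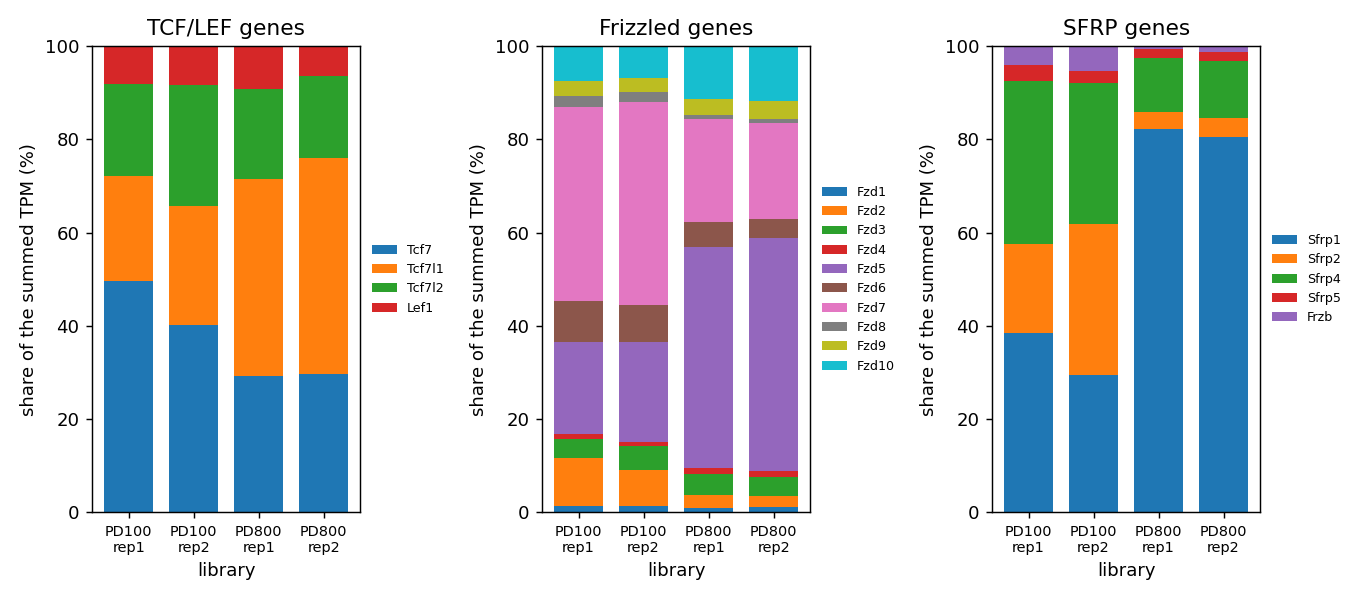
Share of each gene in the summed TPM of the TCF/LEF, Frizzled and SFRP genes (stacked bars, in percent), by library. *Tcf7l1* goes from 24.2% to 44.3% of TCF/LEF, *Fzd5* from 20.6% to 48.7% of Frizzled and *Sfrp1* from 33.9% to 81.3% of SFRP TPM (means of 2 libraries, PD100 to PD800).

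In the cytoplasm, *Ctnnb1* was the most abundant member in both groups. The gene of β-catenin (ENSMUSG00000006932.17, chr9:120929216-120960507, plus strand) had levels of 639 and 679 CPM in PD100 and of 963 and 990 CPM in PD800. Both PD800 libraries were higher, by less than 2-fold. The log2 fold change was 0.57 (SE 0.0842, 95% interval 0.36 to 0.77, edgeR adjusted p = 0.00293), or 1.48-fold. RNA levels do not show the amount of β-catenin protein, which the pathway controls by degradation. The protein-coding gene *Ulk4* overlaps *Ctnnb1* on the opposite strand, at 158.7 to 236.9 counts per library against 22650 or more for *Ctnnb1*. Whether reads were counted by strand is not given in the sources used here, so it is unknown how reads of such a pair were divided.

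*Axin2* encodes a scaffold of the β-catenin destruction complex that WNT itself induces. The gene (ENSMUSG00000000142.15, chr11:108920349-108950783, plus strand) had 316 expected counts in both PD100 libraries and 178 and 158 in PD800. Scaled to library size these were 7.83 and 9.47 CPM against 4.95 and 4.92 CPM. The groups were apart, and the spread was larger in PD100. Its log2 fold change was -0.81 (SE 0.139, 95% interval -1.15 to -0.47, edgeR adjusted p = 0.00519), 1.75-fold lower and so under the 2-fold limit of a call.

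*Nkd1*, a feedback inhibitor that binds Dishevelled, was the least abundant member in PD100. Expected counts were 49 and 37 in PD100 and 21 and 16 in PD800 (ENSMUSG00000031661.12, chr8:88521354-88594884, plus strand). The means were 1.16 ± 0.0745 and 0.541 ± 0.0610 CPM. With a log2 fold change of -1.10 (SE 0.261, 95% interval -1.74 to -0.46) its edgeR adjusted p of 0.0172 missed the threshold, and it was past both thresholds when no expression filter was used (adjusted p = 0.00333). The transcript length of *Nkd1* did not overlap between the groups, while that of the other members did. How often lengths are apart in this way over all genes was not counted. The mean length over isoforms, weighted by their estimated abundance, was 2467 and 2418 bases in PD100 and 3098 and 2952 bases in PD800. At 16 to 49 counts per library the estimate of isoform shares rests on few reads.

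Of the nuclear factors among the members, only *Tcf7* was called. *Tcf7* (ENSMUSG00000000782.15, chr11:52252371-52283014, minus strand), which encodes TCF1, had levels of 16.4 and 10.8 CPM in PD100 and of 6.87 and 5.01 CPM in PD800. The groups did not overlap, but the gap between the PD100 replicates was wider than that between the lower of them and the higher PD800 library. Its log2 fold change was -1.20 (SE 0.242, 95% interval -1.79 to -0.60, edgeR adjusted p = 0.00953), a call just inside the threshold that 7 of the 14 alternatives did not make. Without PD100 replicate 1 the log2 fold change was -0.85, and without PD800 replicate 2 it was -0.98 (adjusted p = 0.0194). DESeq2's size factors in edgeR gave an adjusted p of 0.01002, just above the threshold.

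*Lef1* and *Tcf7l1* were not called. *Lef1* (ENSMUSG00000027985.14, chr3:131110471-131224356, plus strand) had levels of 3.33 and 2.73 CPM in PD100 and of 1.69 and 1.325 CPM in PD800, with a log2 fold change of -0.99 (SE 0.224, 95% interval -1.54 to -0.44, edgeR adjusted p = 0.0141). Without PD100 replicate 2 it passed both thresholds (log2 fold change -1.14, adjusted p = 0.00109). *Tcf7l1*, the gene of the repressor TCF3 (ENSMUSG00000055799.13, chr6:72626378-72789254, minus strand), had levels of 7.18 and 7.70 CPM in PD100 and of 9.79 and 8.15 CPM in PD800. Its log2 fold change was 0.27 (SE 0.129, 95% interval -0.04 to 0.59, edgeR adjusted p = 0.137), an interval that includes no change. Several genes of unknown coding status overlap *Tcf7l1*, and *Gm37736*, the one with the most reads, had 56 to 130 counts per library.

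The make-up of the TCF/LEF family differed between the groups, although *Tcf7l1* itself was not called. *Tcf7* took 49.6% and 40.1% of the summed TPM of the 4 genes in PD100 and 29.3% and 29.7% in PD800. *Tcf7l1* took 22.7% and 25.7% in PD100 and 42.2% and 46.3% in PD800. The activator-type *Tcf7* was the most abundant in PD100, and the repressor-type *Tcf7l1* in PD800. The sum of the family was 10.2 ± 2.10 TPM in PD100 and 5.79 ± 1.53 TPM in PD800, and the share of *Lef1* was 8.28% ± 0.111 and 7.84% ± 2.08. These shares were not tested.

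Ordered by TPM, *Ctnnb1* stood first in both groups, at 220.2 ± 6.64 in PD100 and 277.0 ± 11.4 in PD800. In PD100 *Wls* came second with 7.84 ± 1.46 TPM, followed by *Fzd5* with 6.74 ± 0.0778 and *Tcf7* with 4.65 ± 1.63. *Sfrp1*, *Tcf7l1* and *Axin2* followed between 2.29 and 2.53 TPM with overlapping ranges, and then *Dkk1*, *Lef1* and *Nkd1*. In PD800 the next places were taken by *Fzd5* with 13.1 ± 0.0778 and *Sfrp1* with 11.8 ± 0.629 TPM. *Tcf7l1* and *Tcf7* followed, *Wls* and *Axin2* had overlapping ranges with means of 1.19 and 1.10 TPM, and *Lef1*, *Nkd1* and *Dkk1* stood last, *Dkk1* at 0.0450 TPM. The ranges of all other neighbours in these orders did not overlap.

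The 10 genes were set beside a wider list of 99 pathway genes, of which they are part. Of these, 88 were tested, 7 were called higher (7.95%) and 20 lower (22.7%), where 6.28% and 8.81% of all genes were. The median log2 fold change was -0.40, against 0.01 over all genes. Without the 10 members, 78 were tested, 5 called higher and 17 lower, with a median of -0.37. The lists were not tested as sets.

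Among the WNT ligands 6 of 15 tested were called lower (40%, against 8.81% of all genes) and none higher (6.28% of all genes). *Wnt7b*, the ligand with the highest mean TPM, went from 21.4 ± 3.36 to 4.05 ± 0.217 CPM (log2 fold change -2.41, SE 0.144, edgeR adjusted p = 0.000125). *Wnt7a* had a log2 fold change of -4.25 (SE 0.571) and *Wnt4* of -3.47 (SE 0.292), with means under 0.4 CPM in PD800. The fold of *Wnt7a* rests on 1 and 7 counts in the PD800 libraries, the first of them under the floor of 3 counts. The summed TPM of the 19 *Wnt* genes, a sum chosen after its values were seen, was 13.1 ± 0.962 in PD100 and 3.81 ± 0.453 in PD800. The primitive endoderm markers fell between the same libraries, and their part in these values was not tested.

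The genes around *Wls* in ligand release did not share its direction. *Porcn*, whose product attaches the lipid to WNT proteins, rose from 4.02 ± 0.593 to 11.5 ± 0.853 CPM (log2 fold change 1.52, SE 0.143, edgeR adjusted p = 0.000552). *Notum* encodes an enzyme that removes this lipid outside the cell, and rose from 11.1 ± 0.865 to 58.7 ± 2.68 CPM (log2 fold change 2.40, SE 0.0938, edgeR adjusted p = 4.9e-05). *Notum* lies 1.31 Mb from the last annotated base of chromosome 11, and the median over its 40 nearest tested genes was 1.43. *Csnk1d*, a casein kinase gene 0.979 Mb from the same end, rose with a log2 fold change of 1.41 (SE 0.0715), beside a median of 1.48 around it. The part of this chromosome end in their rise was not tested.

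Of 15 receptor genes 2 were called higher, *Fzd5* and *Ror1* (log2 fold change 1.19, SE 0.195), and 4 lower, which is 13.3% and 26.7% beside the 6.28% and 8.81% of all genes. Among the latter, *Fzd2* had a log2 fold change of -1.80 (SE 0.174) and the co-receptor *Lrp5* of -1.63 (SE 0.0986). *Ryk*, the receptor gene with the highest mean TPM over all 4 libraries, was at -0.41, with 18.8 TPM in PD100 and 11.9 TPM in PD800. The other co-receptor, *Lrp6*, named after its values were seen, had a log2 fold change of 0.87 (edgeR adjusted p = 0.000757), under the 2-fold limit. The median over its 40 nearest tested genes was 0.79, and the part of this region in its rise was not tested. In PD800 *Lrp6* stood above *Ryk* at 14.6 TPM, as did *Fzd5*. In the R-spondin axis, which tunes how long receptors stay on the surface, 1 of 7 tested genes was called higher and 1 lower, 14.3% each. The lower was *Rnf43*, a ligase that removes Frizzled receptors, at -1.57 (SE 0.2495), and the higher was *Rspo2*, named after its values were seen, which lies under 1 CPM in both groups. *Lgr4*, the most abundant of that list, was at -0.12.

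Of 10 tested antagonists 1 was called higher (*Sfrp1*) and 3 lower (*Dkk1*, *Sfrp2* and, named after its values were seen, *Dkk2*). Of 19 cytoplasmic transducers, which include *Ctnnb1*, *Axin2* and *Nkd1*, only *Csnk1d* was called. Of 13 nuclear factors 2 were called, *Tcf7* and the co-repressor gene *Tle1* (log2 fold change -1.60, SE 0.0990), both lower, while *Tle4*, the most abundant of them, was at -0.14. Of all genes 6.28% were called higher and 8.81% lower, beside 10% and 30% of the antagonists, 5.26% and 0.0% of the transducers and 0.0% and 15.4% of the nuclear factors, and with so few genes a list each call moves these shares by several points.

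Of the 14 tested target genes 6 were called lower and 1, *Notum*, higher, where 8.81% and 6.28% of all genes were, with a median log2 fold change of -1.05 against 0.01 over all genes. *Myc* went from 38.9 ± 2.25 to 11.1 ± 0.491 CPM (log2 fold change -1.81, SE 0.0900, edgeR adjusted p = 8e-05), and *Ccnd1*, the target gene with the highest mean TPM over all 4 libraries, was at -0.58 (SE 0.0742), under the 2-fold limit. Its level was 23.7 TPM in PD100 and 14.25 TPM in PD800, where *Notum*, with 6.13 and 25.3 TPM, stood above it. *Sp5*, whose window with 2 heptamers is printed above, went from 1.55 ± 0.0793 to 0.120 ± 0.0510 CPM (log2 fold change -3.68, SE 0.359, edgeR adjusted p = 0.000623), a fold that rests on 3 and 5 counts in PD800. Of the 5 target genes among the 10 members, *Axin2*, *Lef1*, *Tcf7*, *Nkd1* and *Dkk1*, each had a negative log2 fold change, and *Dkk1* and *Tcf7* were called. In each of the 5 both PD800 libraries were below both PD100 libraries, as in 36.3% of all genes, and the list was chosen with earlier results known. Many of the target genes are also controlled by other pathways, and the list does not measure WNT activity.

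**Figure D5:**
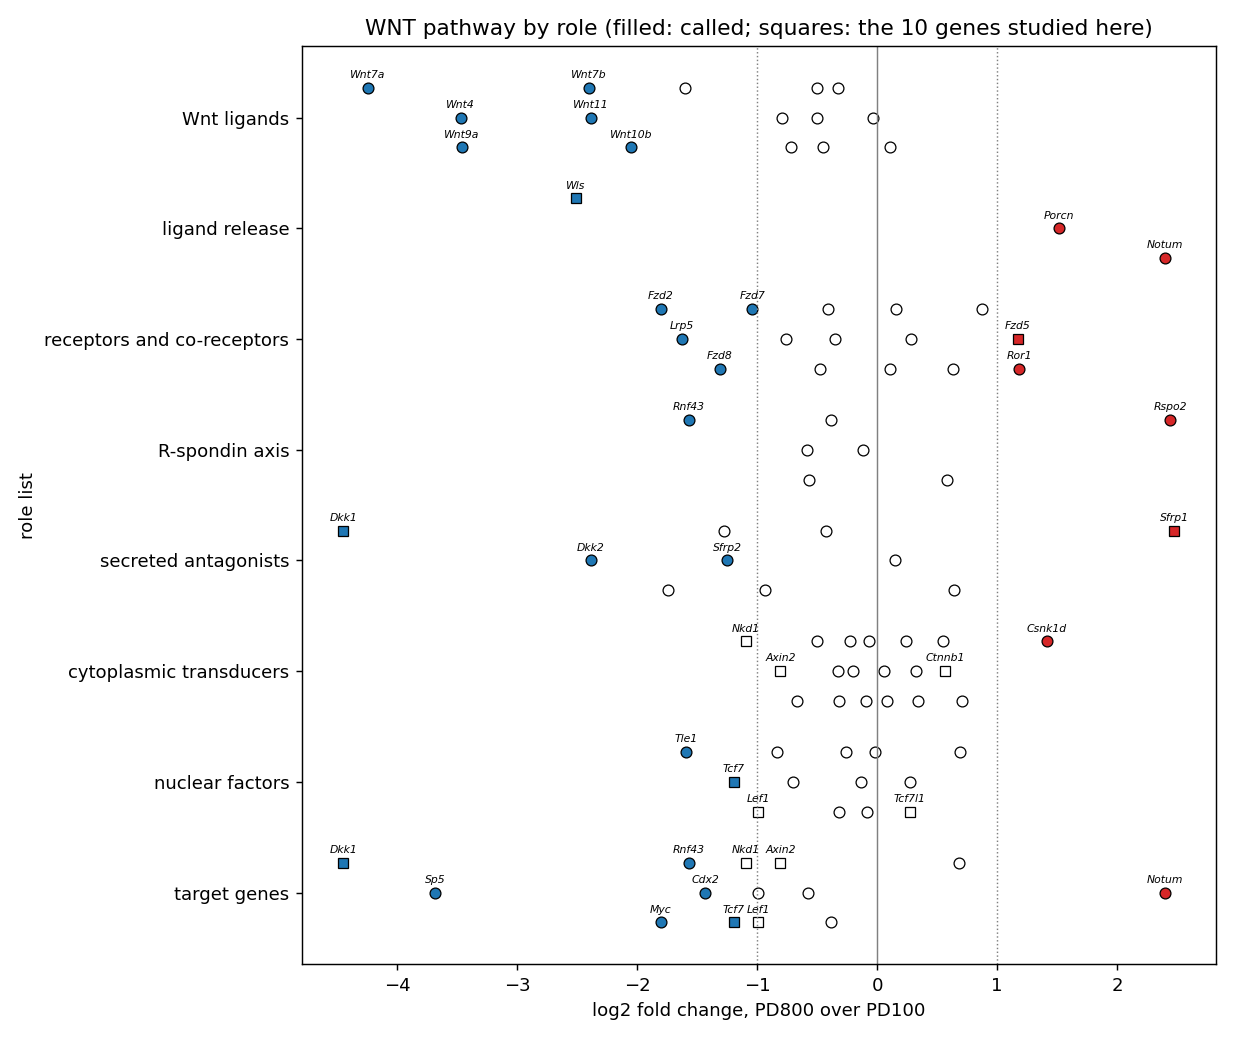
Log2 fold change of PD800 over PD100 (edgeR) for the tested genes of the wider pathway, 1 row per role list; a gene may stand in more than 1 list. Filled symbols are called (red higher, blue lower), open ones are not, squares are the 10 members and dotted lines mark a 2-fold change; among WNT ligands 6 are called lower and none higher.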

How the data were processed

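RNA of PD100 and PD800 DKO741 cells was sequenced as paired-end reads of 101 bases. According to the submitters' processing notes the authors aligned reads to mm10 with STAR 2.5.3a and ran RSEM 1.3.0. The labels name total RNA and the paper mRNA, and neither the annotation release nor the strand setting is given in the sources used here. The authors deposited, for each gene, the expected count (reads shared by several genes are divided), which is not scaled for depth. The deposited TPM and FPKM values are scaled for transcript length and depth, and RSEM's lengths are averages over isoforms. Of 53379 identifiers 53274 were found in GENCODE M21 (GRCm38), the source of coordinates.

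Expected counts were rounded and fitted with edgeR 4.0.16 in R 4.3.3 (filterByExpr with a minimum count of 10, TMM, quasi-likelihood test, Benjamini-Hochberg over 19148 genes). Replicate libraries correlated at 0.984 in PD100 and 0.992 in PD800 (log2 CPM across genes), and the common dispersion was 0.0136. Floors of 3 counts cover counting error only. Of the members 3 (*Lef1*, *Ctnnb1* and *Fzd5*) had fractional counts, from reads shared with other genes.

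The 10 members and all lists were chosen with earlier results of these data known. Beside the members, up to 2 called genes with the highest and 2 with the lowest log2 fold change per role list (mean of at least 1 CPM), and the gene with the highest mean TPM, were named. The alternatives were DESeq2 1.42.0, other normalisations and filters, the replicate number as a block, limma 3.58.1 on log2(TPM + 1) and log2(TPM + 0.1), glmTreat, and each library left out.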

Additional observations from a re-analysis of the deposited data

How the results depend on the processing

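Over the 14 alternatives none of the 10 members changed direction. *Tcf7* lost its call under 7, *Fzd5* under glmTreat and under limma with either pseudocount, where log2 fold changes of 0.86 and 0.94 fell short of 2-fold while the adjusted p of 0.00398 and 0.00371 passed, and *Dkk1* under limma on log2(TPM + 1), where its log2 fold change of -0.99 was just short of 2-fold. *Dkk1* could not be tested with at least 10 counts in every library. *Lef1* was gained without PD100 replicate 2, and *Nkd1* without an expression filter and with the block described below. The members called were 1 higher and 1 lower under limma on log2(TPM + 1), and 1 higher under limma on log2(TPM + 0.1) and under glmTreat. In the wider pathway 3 genes were called higher under each of these, and 8 lower under limma on log2(TPM + 1) and 12 under glmTreat. Over all genes 297 were called higher and 920 lower under limma on log2(TPM + 1), 533 higher and 1779 lower under limma on log2(TPM + 0.1), and 386 higher and 685 lower under glmTreat, beside the reported 1202 higher and 1686 lower. The log2(TPM + pseudocount) scale understates changes of low genes, and the limma fits moved the median of all genes to -0.12 and -0.21. Each library left out in turn left 2 members higher and 2 to 4 lower, and 5 to 6 genes of the wider pathway higher and 14 to 21 lower, while over all genes 924 to 1526 were called higher and 1316 to 1872 lower. With a lone library in a group, its spread was taken as that of the other group.

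The labels do not say that a replicate number marks a shared culture, and the deviations of same-numbered libraries from their group means correlated at 0.265 across genes. With the replicate block, 2 members were called higher and 4 lower, *Nkd1* being added (adjusted p = 0.00949), as were 1461 genes higher and 1956 lower over all genes and 7 higher and 24 lower in the wider pathway. With 2 to 8 counts in PD800 the depth limits the size of the fall of *Dkk1*, and with 16 to 49 counts that of *Nkd1*.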
